A study of Homo sapiens with 12 samples.

Results

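The transcripts of the DNA replication machinery were followed in 3 human lymphoma cell lines. The 54 genes encode the origin recognition complex, the licensing factors, the MCM2-7 helicase and its activators, the replicative polymerases and primase, the sliding clamp and its loader, the single-strand binding and fork proteins, the enzymes of nucleotide supply and the chromatin assembly factor. Members were taken by gene symbol from a table of 63129 gene entries. All 54 were found, and all 54 passed the filter on low values that left 18731 genes. RFC2 had 2 entries, and the one on a primary chromosome was used.

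The table holds FPKM values, which are sequenced fragments scaled to transcript length and to the mapped fragments of a library, for 12 RNA-seq libraries. All 3 lines, KARPAS-422, Pfeiffer and RL, come from diffuse large B cell lymphoma of the germinal centre type. EZH2, the histone methyltransferase of the PRC2 complex, carries a SET domain mutation that raises its activity in all of them, so no group lacks such a mutation. Treated KARPAS-422 cells received the EZH2 inhibitor CPI-169 at 1.5 µM (n = 3), and treated Pfeiffer cells received the EZH2 inhibitor GSK343 at 1.5 µM (n = 2). Control cells of KARPAS-422 (n = 3), Pfeiffer (n = 2) and RL (n = 2) received 0.1% DMSO. All were collected after 4 days. The labels call KARPAS-422 and Pfeiffer responsive to EZH2 inhibition and RL not responsive, and only DMSO libraries of RL were analysed here. RL cultures were seeded at 200000 cells per ml and those of the other lines at 500000. Each compound was measured in 1 line, and the labels do not say whether libraries of a group came from separate cultures, so the p-values measure spread that may be technical.

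As background, replication is prepared in G1 phase, when the origin recognition complex, CDC6 and CDT1 load the MCM2-7 ring onto DNA. In S phase the kinase CDC7 with DBF4, together with cyclin-dependent kinases, turns the loaded ring into an active helicase by recruiting CDC45 and the GINS complex. Polymerases alpha, delta and epsilon then copy the DNA, with polymerase delta held by PCNA, which replication factor C loads. Many of these genes are transcribed through E2F factors at the transition from G1 to S phase. Germinal centre B cells divide fast and express these genes highly.

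Promoters of 48 of the 54 members were matched by symbol in the RefSeq table of GRCh38.p14. Each window held 300 bases, from 250 before the annotated start to 50 after it. Windows were searched on both strands for the E2F core (TTCCCGC or TTGGCGC), for the CCAAT box (CCAAT) and for the cell cycle homology region (TTTGAA). An E2F core was present in 28 of 48 member windows (58.3%) and in 9.33% of the 27305 promoters of the same length in the table. A CCAAT box was present in 54.2% of member windows and in 35.7% of all promoters. The cell cycle homology region, an element known from genes of G2 phase and mitosis, was present in 4.17% of member windows and in 15.4% of all promoters. A match describes the letters and is not a binding site. The 7 stretches given here are the 250 bases before the start, written 5′ to 3′ on the gene's strand. They belong to the members with an entry that had the lowest or highest response in a line, and capitals mark matches to the 3 motifs. They lie at chr16:88803539-88803788 (plus strand) for CDT1, chr2:10122489-10122738 (plus) for RRM2, chr16:58392221-58392470 (plus) for GINS3, chr22:19479670-19479919 (plus) for CDC45, chr16:85688955-85689204 (minus) for GINS2, chr7:104208014-104208263 (minus) for ORC5 and chr2:148021552-148021801 (minus) for ORC4.
CDT1: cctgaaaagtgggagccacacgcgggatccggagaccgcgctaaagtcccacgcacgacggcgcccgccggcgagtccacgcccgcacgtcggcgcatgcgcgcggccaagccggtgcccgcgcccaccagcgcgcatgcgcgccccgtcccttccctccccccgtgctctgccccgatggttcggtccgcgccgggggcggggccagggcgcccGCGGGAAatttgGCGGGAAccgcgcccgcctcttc
RRM2: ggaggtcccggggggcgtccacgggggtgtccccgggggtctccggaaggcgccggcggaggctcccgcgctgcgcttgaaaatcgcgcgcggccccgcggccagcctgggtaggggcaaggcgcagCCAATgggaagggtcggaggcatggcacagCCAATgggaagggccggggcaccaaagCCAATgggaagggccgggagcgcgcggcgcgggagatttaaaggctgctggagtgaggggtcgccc
GINS3: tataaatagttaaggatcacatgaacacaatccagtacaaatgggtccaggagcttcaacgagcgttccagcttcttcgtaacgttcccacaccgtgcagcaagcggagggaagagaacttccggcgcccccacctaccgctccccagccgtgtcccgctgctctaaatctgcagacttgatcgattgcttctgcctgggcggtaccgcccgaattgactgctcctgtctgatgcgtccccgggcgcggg
CDC45: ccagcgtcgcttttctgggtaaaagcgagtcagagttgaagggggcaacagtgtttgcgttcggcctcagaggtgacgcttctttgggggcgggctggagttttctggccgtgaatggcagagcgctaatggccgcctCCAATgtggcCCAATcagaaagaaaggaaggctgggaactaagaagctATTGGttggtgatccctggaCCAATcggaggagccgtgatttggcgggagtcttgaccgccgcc
GINS2: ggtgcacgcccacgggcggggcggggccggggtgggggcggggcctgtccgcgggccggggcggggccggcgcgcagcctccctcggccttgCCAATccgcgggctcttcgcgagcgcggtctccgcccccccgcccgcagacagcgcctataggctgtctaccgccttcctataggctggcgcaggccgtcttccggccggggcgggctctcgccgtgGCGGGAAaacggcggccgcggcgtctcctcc
ORC5: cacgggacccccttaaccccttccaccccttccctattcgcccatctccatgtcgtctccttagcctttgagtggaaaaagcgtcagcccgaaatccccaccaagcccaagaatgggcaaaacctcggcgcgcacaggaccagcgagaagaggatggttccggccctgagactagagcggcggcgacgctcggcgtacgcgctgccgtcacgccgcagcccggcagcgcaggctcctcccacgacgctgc
ORC4: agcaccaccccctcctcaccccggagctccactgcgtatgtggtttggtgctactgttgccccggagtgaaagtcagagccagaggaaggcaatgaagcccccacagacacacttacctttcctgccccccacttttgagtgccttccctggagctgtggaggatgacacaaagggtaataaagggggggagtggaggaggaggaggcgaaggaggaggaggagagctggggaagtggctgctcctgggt

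CDT1 held 2 E2F cores close to its start and no CCAAT box. RRM2 held 3 CCAAT boxes and no E2F core, and CDC45 held 4 CCAAT boxes, counting both strands, and no E2F core. GINS2 held 1 of each. GINS3 held no full match in the printed bases, and the E2F core of its window lies at least partly after the start. ORC5 and ORC4 held none of the 3 motifs in the printed bases.

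Libraries of a group resembled each other closely, with the GSK343 pair as the exception. Pearson's r across the tested genes was 0.97 for the GSK343 pair and 0.9961 for the Pfeiffer DMSO pair, and the root mean square of their log2 differences was 0.497 and 0.185. FPKM sums ran from 369524 to 415333 in KARPAS-422, from 524701 to 628281 in Pfeiffer, and were 455853 and 460907 in RL. Without counts the depth behind a value is unknown. All 6 B cell markers reached 1 FPKM in every group, and none of the 6 myeloid markers did. Of the T and NK cell markers, CD2 was listed at 0 in KARPAS-422, where 4 of 7 markers reached 1 FPKM with CPI-169 and 2 with DMSO; the list summed to 35.5 to 37.2 FPKM under DMSO and to 55.5 to 62.3 under CPI-169, mostly CD3G. In Pfeiffer the same list summed to 411 to 413 FPKM under DMSO and to 298 to 396 under GSK343, nearly all CD8A. Of the epithelial and stromal markers, DCN averaged 229.9 FPKM under DMSO and 643 under CPI-169 in KARPAS-422. EPCAM averaged 134.6 FPKM under DMSO and 58.2 under GSK343 in Pfeiffer, while COL1A2 averaged at most 0.1205 in any group. In Pfeiffer 4 of these 6 markers averaged 1 FPKM or more under DMSO and under GSK343. Of the 5 tested, 2 were higher and 1 was lower with GSK343. The part of these differences in the results was not tested. EZH2, the target of both compounds, went from 44.35, 48.7 and 49.05 FPKM under DMSO to 41.5, 40.45 and 41.05 under CPI-169 in KARPAS-422 (log2 difference -0.20 ± 0.117 (SE), limma adjusted p = 0.175). In Pfeiffer it went from 31.6 and 30.8 FPKM under DMSO to 13.8 and 20.9 under GSK343 (log2 difference -0.84 ± 0.143 (SE), limma adjusted p = 0.00169). The compounds act on the enzyme, so its transcript is no check of the treatment.

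In KARPAS-422, CPI-169 moved the replication genes in both directions. Of the 54 members, 15 rose and 18 fell, and 21 did not pass an adjusted p of 0.05 (limma, Benjamini-Hochberg over all genes tested, n = 3 each). Among all genes tested 54.2% were called, 26.9% higher and 27.3% lower, so the 61.1% of members called lies near the background. The median log2 difference of the members was -0.08, against 0.01 for all genes, and single members ran from -0.94 to 1.36. Differences are on the scale of log2(FPKM + 1), which understates changes of low values. In bulk RNA, fewer cells that express a gene and less of its RNA per cell cannot be told apart. All 5 groups share 1 estimate of the spread, and leaving out either GSK343 library gave 19 members higher and 23 lower in KARPAS-422, where all genes went from 5047 higher and 5106 lower to 5830 higher and 5777 to 5779 lower. The members that then also passed were ORC1, ORC2, CDC6, MCM4, POLA2, PRIM2, RFC5, FEN1 and TIPIN. With median scaling of the libraries 19 members were higher and 14 lower, and all genes moved the same way, to 5813 higher and 4415 lower.

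**Figure D1:**
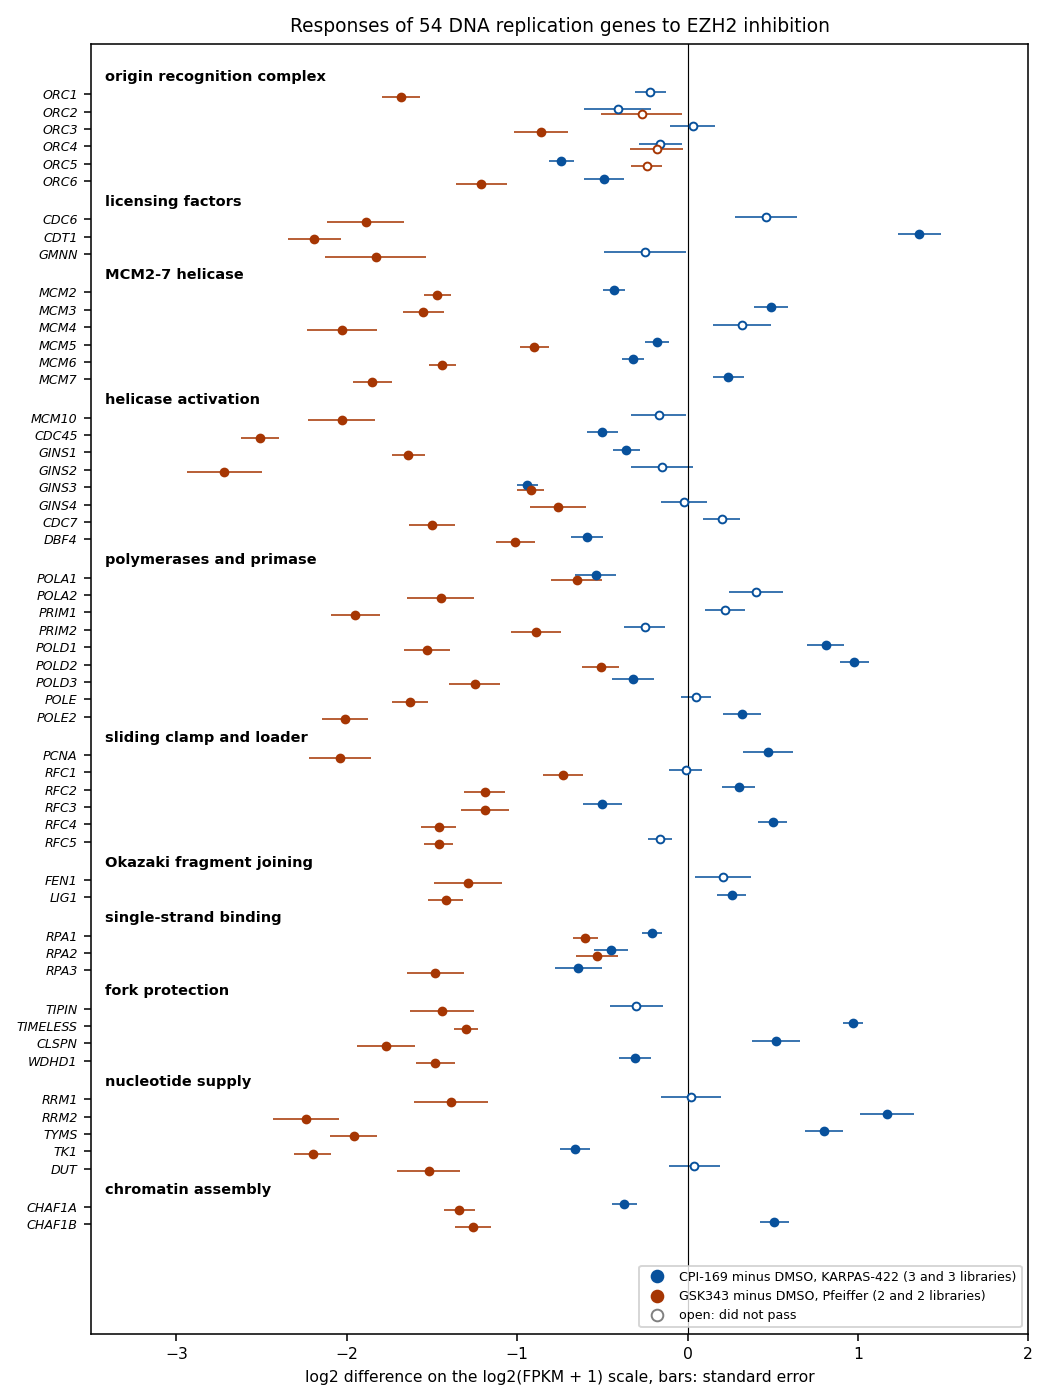
Log2 differences on the log2(FPKM + 1) scale of the 54 replication genes, grouped by role, for CPI-169 minus DMSO in KARPAS-422 (3 and 3 libraries) and GSK343 minus DMSO in Pfeiffer (2 and 2 libraries). Bars are standard errors from limma and open symbols did not pass; the KARPAS-422 values lie on both sides of 0, from -0.94 for GINS3 to 1.36 for CDT1, and all Pfeiffer values lie under 0.

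The licensing factor CDT1 had the highest difference. CDT1 (chr16:88869620-88875666 in hg19), which brings the MCM ring to origins, went from 5.33, 6.55 and 6.18 FPKM under DMSO to 15.6, 20.1 and 15.6 under CPI-169. Every treated library lay above every control library (log2 difference 1.36 ± 0.126 (SE), limma adjusted p = 7.03e-06). Its partner CDC6 went from 5.69, 5.47 and 6.11 FPKM under DMSO to 9.03, 7.62 and 8.20 under CPI-169. These groups did not overlap either, but CDC6 did not pass with all 12 libraries (log2 difference 0.46 ± 0.183 (SE), limma adjusted p = 0.0562). GMNN, which encodes the CDT1 inhibitor geminin, did not pass (log2 difference -0.25 ± 0.242 (SE), limma adjusted p = 0.428).

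Of the 6 subunits of the origin recognition complex, which marks origins, 0 rose and 2 fell. The 33.3% lower lies near the 27.3% of all genes, of which 26.9% were higher. ORC5 (chr7:103766787-103848495 in hg19) went from 20.7, 24.2 and 23.3 FPKM under DMSO to 13.6, 12.7 and 13.02 under CPI-169. Its groups lay apart (log2 difference -0.74 ± 0.0749 (SE), limma adjusted p = 1.31e-05). ORC6 fell by 0.49 on the log2 scale. ORC1, ORC2, ORC3 and ORC4 had log2 differences of -0.22, -0.41, 0.03 and -0.16 and did not pass.

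The MCM2-7 ring is built from 1 copy of each subunit, and its transcripts moved in both directions. MCM3 (chr6:52128806-52149679 in hg19) went from 34.8, 37.7 and 36.15 FPKM under DMSO to 52.6, 51.2 and 49.6 under CPI-169 (log2 difference 0.49 ± 0.0986 (SE), limma adjusted p = 0.00164). MCM2 (chr3:127317065-127341276 in hg19) went from 34.1, 35.1 and 33.9 FPKM under DMSO to 26.00, 24.3 and 25.2 under CPI-169 (log2 difference -0.43 ± 0.0651 (SE), limma adjusted p = 2.25e-04). MCM3 was thus higher and MCM2 lower in every treated library than in any control library. MCM6 fell by 0.32 on the log2 scale, and MCM4 did not pass (log2 difference 0.32 ± 0.168 (SE), limma adjusted p = 0.129). MCM7 had 0.24 (limma adjusted p = 0.0454) and MCM5 -0.18 (limma adjusted p = 0.0466). Both calls were lost when any KARPAS-422 or RL library was left out, that of MCM7 also without either Pfeiffer DMSO library and with no filter, and that of MCM5 with quantile normalization and median scaling, with adjusted p up to 0.125 for MCM7 and 0.332 for MCM5 over all alternatives.

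Among the 8 genes of helicase activation, 0 rose and 4 fell (50%), where 26.9% of all genes were higher and 27.3% lower. GINS3 (chr16:58328983-58440048 in hg19), a subunit of the GINS complex that joins MCM2-7 and CDC45, had the lowest difference of all members. It went from 25.1, 26.3 and 25.35 FPKM under DMSO to 13.1, 13.04 and 12.4 under CPI-169. All treated libraries lay well under the controls (log2 difference -0.94 ± 0.0639 (SE), limma adjusted p = 9.16e-07). CDC45 (chr22:19466981-19508135 in hg19) went from 26.7, 34.5 and 30.3 FPKM under DMSO to 22.02, 19.8 and 21.8 under CPI-169 (log2 difference -0.50 ± 0.0921 (SE), limma adjusted p = 9.31e-04). DBF4, the regulatory partner of the CDC7 kinase, fell by 0.59 and GINS1 by 0.36 on the log2 scale. MCM10, GINS2, GINS4 and CDC7 had -0.17, -0.15, -0.02 and 0.20 and did not pass.

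The polymerase and primase genes also moved in both directions. Of 9, 3 rose (33.3%) and 2 fell (22.2%), near the 26.9% and 27.3% of all genes. POLD2 (chr7:44154285-44163957 in hg19), an accessory subunit of the lagging strand polymerase delta, went from 43.9, 48.7 and 47.5 FPKM under DMSO to 96.01, 85.45 and 98.2 under CPI-169 (log2 difference 0.98 ± 0.0876 (SE), limma adjusted p = 5.66e-06). POLD1 (chr19:50887460-50921273 in hg19), the catalytic subunit of the same enzyme, went from 12.15, 12.8 and 12.6 FPKM under DMSO to 22.8, 21.7 and 23.6 under CPI-169 (log2 difference 0.81 ± 0.109 (SE), limma adjusted p = 1.09e-04). Treated libraries of both genes lay wholly above the controls. POLD3, another subunit of it, had -0.32 (limma adjusted p = 0.0462). That call was lost when any KARPAS-422 library other than DMSO replicate 1, or any Pfeiffer DMSO or RL library, was left out, with a pseudocount of 0.1, with no filter, and with quantile normalization or median scaling (adjusted p up to 0.158 over all alternatives). POLA1, the catalytic subunit of the priming polymerase alpha, went from 9.94, 10.35 and 9.215 FPKM under DMSO to 6.43, 6.52 and 6.37 under CPI-169 (log2 difference -0.54 ± 0.121 (SE), limma adjusted p = 0.00313). POLE2, a subunit of polymerase epsilon, rose by 0.32 although its groups overlapped, and the call was lost without KARPAS-422 DMSO replicate 1 or 3, without CPI-169 replicate 1 or 2, with quantile normalization, with no filter and with the KARPAS-422 groups alone (adjusted p up to 0.106). POLE, POLA2, PRIM1 and PRIM2 had 0.05, 0.40, 0.22 and -0.25 and did not pass.

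PCNA (chr20:5095598-5107272 in hg19), the ring that tethers polymerases, went from 49.85, 63.7 and 56.9 FPKM under DMSO to 81.6, 75.4 and 78.8 under CPI-169. Its groups did not overlap (log2 difference 0.47 ± 0.147 (SE), limma adjusted p = 0.02), and the call was lost without KARPAS-422 DMSO replicate 1, CPI-169 replicate 1 or CPI-169 replicate 3 and with no filter on low values (adjusted p up to 0.0735). Of the clamp loader subunits, RFC4 rose by 0.50 and RFC2 by 0.30 on the log2 scale, RFC3 fell by 0.50, and RFC1 and RFC5 did not pass. The RFC2 call was lost without KARPAS-422 DMSO replicate 1 or CPI-169 replicate 3, with no filter and with the KARPAS-422 groups alone (adjusted p up to 0.101). LIG1, the ligase that seals Okazaki fragments, rose by 0.26, a call lost without DMSO replicate 2 or 3 or CPI-169 replicate 2 (adjusted p up to 0.0826). The flap nuclease gene FEN1 did not pass (log2 difference 0.21 ± 0.164 (SE), limma adjusted p = 0.305).

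All 3 subunits of replication protein A, the single-strand binding complex, fell. RPA3 went from 29.7, 41.1 and 40.7 FPKM under DMSO to 24.1, 20.2 and 25.98 under CPI-169. Its groups lay apart (log2 difference -0.64 ± 0.138 (SE), limma adjusted p = 0.0026). RPA2 fell by 0.45 and RPA1 by 0.21 on the log2 scale. The RPA1 call was lost with quantile normalization, with median scaling and without CPI-169 replicate 2 (adjusted p up to 0.122).

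Of the fork protection genes, TIMELESS rose and its partner TIPIN did not pass. TIMELESS (chr12:56810902-56843187 in hg19) went from 9.99, 10.4 and 10.3 FPKM under DMSO to 20.4, 22.1 and 20.5 under CPI-169. The libraries of each group lay close together, and its SE was the smallest of the members (log2 difference 0.97 ± 0.0585 (SE), limma adjusted p = 4.28e-07). TIPIN had overlapping groups (log2 difference -0.30 ± 0.154 (SE), limma adjusted p = 0.125). CLSPN, the checkpoint adaptor claspin, rose by 0.52, a call lost with quantile normalization (adjusted p = 0.0817). WDHD1, which links the helicase and polymerase alpha, fell by 0.31, a call lost with quantile normalization, with median scaling and without DMSO replicate 2 or CPI-169 replicate 3 (adjusted p up to 0.0702).

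Among the genes of nucleotide supply, RRM2 and TYMS rose and TK1 fell. RRM2 (chr2:10262454-10271545 in hg19), the S-phase subunit of ribonucleotide reductase, went from 8.44, 10.6 and 9.25 FPKM under DMSO to 21.2, 23.3 and 22.7 under CPI-169 (log2 difference 1.17 ± 0.159 (SE), limma adjusted p = 1.09e-04). TYMS (chr18:657603-673578 in hg19), which makes thymidylate, went from 20.02, 23.03 and 20.3 FPKM under DMSO to 36.5, 38.04 and 37.6 under CPI-169 (log2 difference 0.80 ± 0.111 (SE), limma adjusted p = 1.30e-04). TK1 (chr17:76170159-76183314 in hg19), the thymidine kinase of the salvage route, went from 31.5, 36.8 and 35.8 FPKM under DMSO to 22.7, 21.3 and 20.7 under CPI-169 (log2 difference -0.66 ± 0.09 (SE), limma adjusted p = 1.16e-04). None of the 3 had overlapping groups. RRM1, the large reductase subunit, and DUT, the dUTPase, had 0.02 and 0.04 and did not pass. Of the chromatin assembly factor, which places histones behind the fork, CHAF1B rose by 0.51 and CHAF1A fell by 0.37 on the log2 scale.

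Under each of 21 alternative settings 9 of the 15 rises and 14 of the 18 falls kept their call. The lost calls given above by gene leave out the replicate block, under which 3 calls were lost and 1 more member passed. The 9 rises kept throughout were CDT1, MCM3, POLD1, POLD2, RFC4, TIMELESS, RRM2, TYMS and CHAF1B. Of the members with a promoter entry, an E2F core was present in 11 of 15 that rose, in 8 of 14 that fell and in 9 of 19 that did not pass, and these shares were not tested.

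In Pfeiffer, GSK343 lowered nearly the whole machinery. Of the 54 members, 0 rose and 51 fell, and ORC2, ORC4 and ORC5 did not pass (limma, Benjamini-Hochberg over all genes tested, n = 2 each). Among all genes tested 29.5% were called and 17.5% were lower, against 94.4% of the members. The median log2 difference of the members was -1.45, against -0.03 for all genes, and all 54 values were negative, from -2.72 to -0.18. On the log2(FPKM + 1) scale 41 members were at least 2-fold lower, and 9 at least 4-fold lower. The lower quartile of all genes tested was -0.29 on that scale. In 52 members both treated libraries lay under both controls, and only ORC2 and ORC4 had overlapping groups. The share of all genes at these cutoffs or without overlap was not counted.

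These calls draw on the spread of the other lines. With the 4 Pfeiffer libraries fitted alone, which leaves 2 residual degrees of freedom, 0 of all 18731 genes passed in limma, so the 0 members among them say nothing particular about the members. Of the members 51 had an unadjusted p under 0.05 in that fit, and the share of all genes under it was not counted. Over all 54 members the limma adjusted p ran from 0.0516 to 0.681. Under the 20 other alternatives 45 of the 51 calls were kept, and the exceptions were ORC3, GINS4, POLA1, POLD2, RFC1 and RPA2, all 6 of which were lost with library weights. Over all genes the split was 2254 higher and 3281 lower, 2652 and 2548 with quantile normalization, and 3441 and 2206 with median scaling, where 49 and 51 members were lower. It was 643 and 902 with library weights (45 members lower), 1207 and 1796 without DMSO replicate 1 (50), 1444 and 2093 without DMSO replicate 2 (49), and 4458 and 4223 without GSK343 replicate 1 (51). The member medians of the GSK343 libraries against the DMSO mean were -1.33 for replicate 1 and -1.55 for replicate 2.

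The lowest values were in helicase activation, where all 8 genes fell. GINS2 (chr16:85709803-85723679 in hg19), a GINS subunit, went from 54.45 and 56.7 FPKM under DMSO to 10.7 and 5.29 under GSK343 (log2 difference -2.72 ± 0.22 (SE), limma adjusted p = 1.55e-05). CDC45 went from 30.7 and 31.5 FPKM under DMSO to 4.34 and 4.95 under GSK343 (log2 difference -2.51 ± 0.113 (SE), limma adjusted p = 6.96e-07). Treated libraries of both genes lay far under the controls, and those of CDC45 lay closer together than those of GINS2. MCM10, which helps to activate the assembled helicase, fell by 2.03, GINS1 by 1.64 and CDC7 by 1.50 on the log2 scale. DBF4, GINS3 and GINS4 fell by 1.01, 0.92 and 0.76.

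All 3 licensing genes fell, CDT1 by 2.19, CDC6 by 1.89 and GMNN by 1.83 on the log2 scale. CDT1 went from 30.5 and 38.2 FPKM under DMSO to 7.47 and 6.001 under GSK343 (SE 0.154, limma adjusted p = 6.59e-06). The origin recognition complex held all 3 members that did not pass. ORC1, its cell cycle regulated subunit, went from 9.74 and 9.65 FPKM under DMSO to 2.73 and 1.98 under GSK343 (log2 difference -1.68 ± 0.112 (SE), limma adjusted p = 4.96e-06). ORC6 fell by 1.21 and ORC3 by 0.86. ORC5 went from 11.1 and 10.1 FPKM under DMSO to 8.47 and 9.195 under GSK343, with both treated libraries under the controls (log2 difference -0.24 ± 0.0917 (SE), limma adjusted p = 0.0736). It passed without GSK343 replicate 2 and without KARPAS-422 DMSO replicate 1. ORC2 (chr2:201773695-201828403 in hg19) went from 59.8 and 54.1 FPKM under DMSO to 32.8 and 67.1 under GSK343, so its treated libraries lay on opposite sides of the controls (log2 difference -0.27 ± 0.24 (SE), limma adjusted p = 0.434), and it passed without GSK343 replicate 2. ORC4 went from 17.1 and 14.7 FPKM under DMSO to 16.02 and 12.01 under GSK343 and overlapped as well.

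All 6 MCM2-7 genes fell, from 0.90 for MCM5 to 2.03 for MCM4 on the log2 scale. MCM4, which had the highest level of any member in any library, went from 311 and 320.3 FPKM under DMSO to 103 and 56.7 under GSK343 (log2 difference -2.03 ± 0.206 (SE), limma adjusted p = 6.37e-05). MCM2 went from 64.15 and 71.4 FPKM under DMSO to 22.85 and 24.7 under GSK343 (log2 difference -1.47 ± 0.0797 (SE), limma adjusted p = 1.78e-06). MCM3 went from 113 and 125 FPKM under DMSO to 46.1 and 34.5 under GSK343 (log2 difference -1.55 ± 0.121 (SE), limma adjusted p = 1.24e-05). In all 3 the treated libraries lay under the controls.

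All 9 polymerase and primase genes fell, from 0.51 for POLD2 to 2.01 for POLE2 on the log2 scale. POLD2 went from 105 and 119.9 FPKM under DMSO to 73.75 and 83.6 under GSK343 (log2 difference -0.51 ± 0.107 (SE), limma adjusted p = 0.00565), and its call was lost without Pfeiffer DMSO replicate 2, with quantile normalization and with library weights. The POLA1 call (-0.65 ± 0.149 (SE), limma adjusted p = 0.00851) was also lost without DMSO replicate 2 and with library weights, with adjusted p up to 0.197 over all alternatives. PCNA went from 164 and 156 FPKM under DMSO to 48.1 and 30.03 under GSK343 (log2 difference -2.04 ± 0.18 (SE), limma adjusted p = 2.61e-05). Its treated libraries lay far under the controls. The 5 clamp loader genes fell by 0.73 for RFC1 up to 1.46 for RFC4 and RFC5, and FEN1 and LIG1 by 1.29 and 1.42. RPA3 fell by 1.48, and RPA1 and RPA2 by 0.60 and 0.53; the RPA2 call was lost without Pfeiffer DMSO replicate 1, with quantile normalization and with library weights (adjusted p up to 0.161).

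All 5 genes of nucleotide supply fell, with the lowest median of any role, -1.96. RRM2 went from 60.6 and 54.5 FPKM under DMSO to 15.1 and 8.54 under GSK343 (log2 difference -2.24 ± 0.194 (SE), limma adjusted p = 2.36e-05). TK1 went from 106 and 108 FPKM under DMSO to 25.3 and 20.2 under GSK343 (log2 difference -2.20 ± 0.11 (SE), limma adjusted p = 9.80e-07). TYMS fell by 1.96, DUT by 1.52 and RRM1 by 1.39 on the log2 scale. The 4 fork protection genes fell by 1.30 for TIMELESS up to 1.77 for CLSPN, and CHAF1A and CHAF1B by 1.34 and 1.26.

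**Figure D2:**
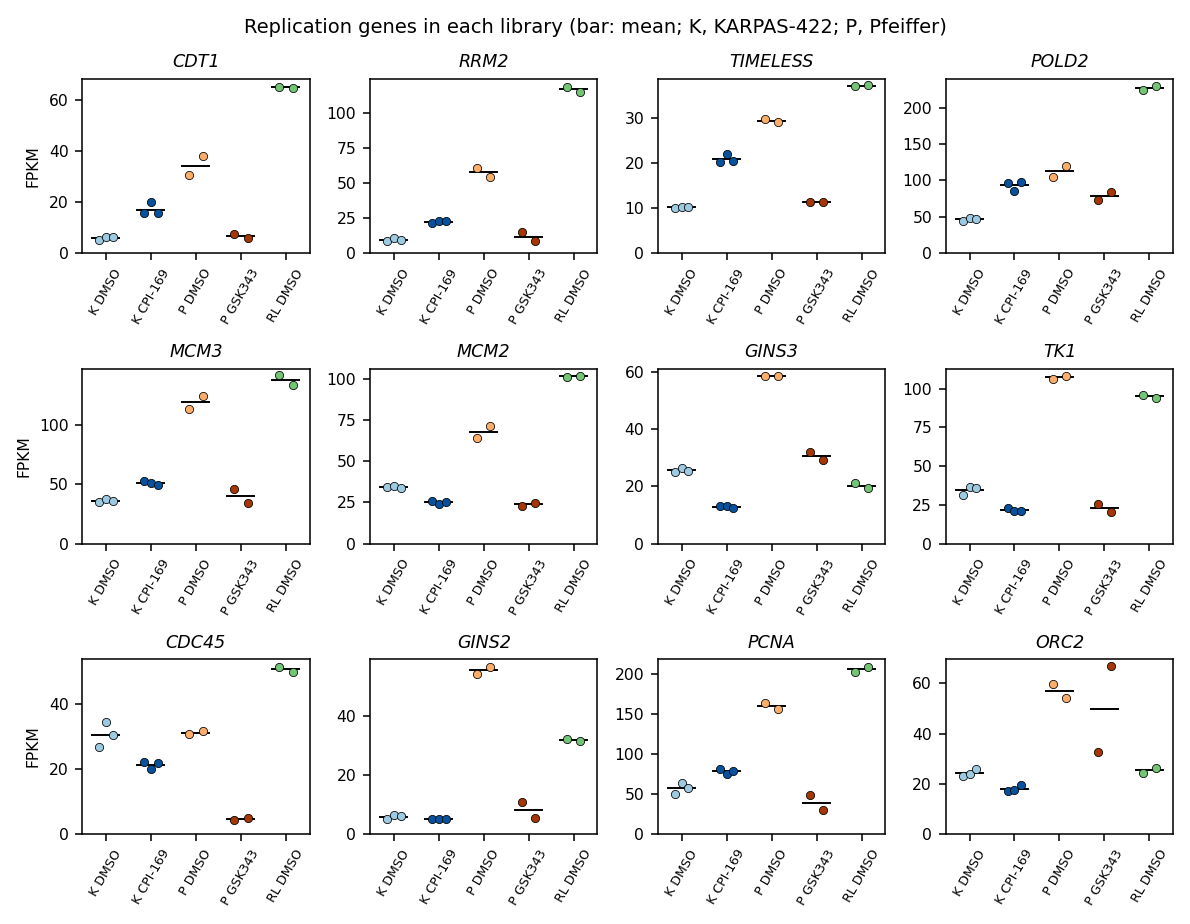
FPKM (y axis, from 0) of 12 replication genes in each of the 12 libraries by line and treatment (points are libraries, bars are group means). CDT1, RRM2, TIMELESS, POLD2, MCM3 and PCNA rose in KARPAS-422 and fell in Pfeiffer, MCM2, GINS3, TK1 and CDC45 fell in both, and the GSK343 libraries of ORC2 lie at 32.8 and 67.1 FPKM.

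The responses of the lines were compared by a test of their difference. The Pfeiffer response was lower than the KARPAS-422 response for 48 of 54 members and higher for 1, ORC5, and 5 did not pass (limma, Benjamini-Hochberg). Among all genes tested 42.6% were called, 18.8% higher and 23.8% lower. The median difference of the members was -1.49, against -0.07 for all genes. The compound and the line differ together here and cannot be told apart.

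By call, 15 members rose in KARPAS-422 and fell in Pfeiffer, 17 fell in both, 19 fell in Pfeiffer and did not pass in KARPAS-422, and ORC5 fell in KARPAS-422 and did not pass in Pfeiffer. With 51 of 54 members lower in Pfeiffer, these counts largely repeat the KARPAS-422 calls. Those were 27.8% higher and 33.3% lower, near the 26.9% and 27.3% of all genes. The share of all genes with each pair of calls was not counted. The differences of largest size were -3.55 ± 0.199 (SE), limma adjusted p = 1.35e-06 for CDT1, -3.41 ± 0.251 (SE), limma adjusted p = 6.64e-06 for RRM2 and -2.76 ± 0.175 (SE), limma adjusted p = 2.95e-06 for TYMS. Shared falls could differ in size, as for CDC45 (-2.01 ± 0.146 (SE), limma adjusted p = 6.00e-06) and TK1 (-1.54 ± 0.142 (SE), limma adjusted p = 2.66e-05). For GINS3 the responses were -0.94 and -0.92, and their difference of 0.02 had an SE of 0.101 (limma adjusted p = 0.881); it passed with quantile normalization (limma adjusted p = 0.047). ORC5 fell more in KARPAS-422 (0.51 ± 0.118 (SE), limma adjusted p = 0.0063). ORC4, POLA1 and RPA2 had -0.02, -0.11 and -0.08 and did not pass. ORC2 had 0.14 (limma adjusted p = 0.735), and without GSK343 replicate 2 it had -0.36 (limma adjusted p = 0.0433). Without GSK343 replicate 1 it had 0.65 and passed as the other member with a higher value.

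The Pfeiffer differences of the 15 members that rose in KARPAS-422 had a median of -1.55 (from -2.24 to -0.51). Those that fell in KARPAS-422 had a median of -1.23 (from -2.51 to -0.24), and those that did not pass had a median of -1.46; the medians were not tested against each other. Across the 54 genes the 2 responses had a Pearson's r of -0.31 and a Spearman's rho of -0.33, a description only, since the genes share their libraries and are not independent replicates.

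**Figure D3:**
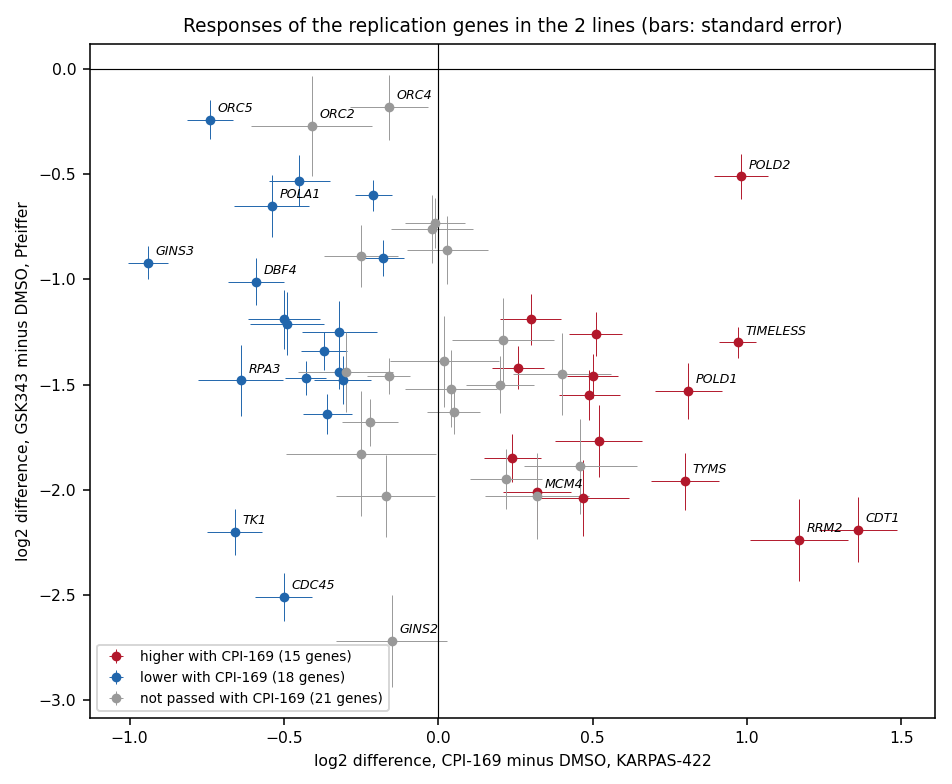
Log2 difference with CPI-169 in KARPAS-422 (x axis) against log2 difference with GSK343 in Pfeiffer (y axis) for the 54 replication genes, with standard errors as bars and colours for the KARPAS-422 call. All points lie under 0 on the y axis and on both sides of 0 on the x axis, from -0.94 for GINS3 to 1.36 for CDT1.

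Under DMSO the replication transcripts were lowest in KARPAS-422. The median of the 54 mean levels was 21.35 FPKM in KARPAS-422, 36.3 in Pfeiffer and 39.9 in RL. KARPAS-422 was lowest for 47 members, RL highest for 37 and Pfeiffer highest for 15, and such orders were not counted over all genes. FPKM sums of the libraries were also lowest in KARPAS-422, and their part in these orders was not tested. The 3 comparisons between lines share DMSO libraries, so their counts are not independent, and for RL the line and the seeding density cannot be told apart.

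RL exceeded KARPAS-422 for 47 members and was lower for 2, GINS3 (-0.32) and RFC3 (-0.73), by limma with Benjamini-Hochberg. Of all genes tested 66.8% were called, 33.6% higher and 33.2% lower. The member median was 1.29, against 0.00 for all genes, whose upper quartile was 0.55. At least 2-fold higher on the log2(FPKM + 1) scale were 33 members, a share not counted over all genes. RRM2 measured 119 and 115 FPKM in RL, against 8.44, 10.6 and 9.25 in KARPAS-422 (log2 difference 3.50 ± 0.177 (SE), limma adjusted p = 2.44e-08). CDT1 measured 65.35 and 64.9 FPKM in RL, against 5.33, 6.55 and 6.18 (log2 difference 3.24 ± 0.14 (SE), limma adjusted p = 7.32e-09). Neither gene's groups came near each other.

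Pfeiffer exceeded KARPAS-422 for 42 members and was lower for ORC4, ORC5, RFC3 and RPA1. The background was 83.0% called, 43.2% higher and 39.8% lower, and the member median was 0.98, against 0.06 for all genes. MCM4 measured 311 and 320.3 FPKM in Pfeiffer, against 32.2, 31.9 and 31.00 in KARPAS-422 (log2 difference 3.28 ± 0.188 (SE), limma adjusted p = 3.12e-08). GINS2 measured 54.45 and 56.7 FPKM, against 4.95, 6.38 and 5.89 (log2 difference 3.07 ± 0.201 (SE), limma adjusted p = 9.22e-08). Without Pfeiffer DMSO replicate 2, 2 members were lower in Pfeiffer. The median of all genes moved to -0.10 with quantile normalization and to 0.13 with median scaling.

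RL and Pfeiffer lay closer together, with a member median of 0.31 against -0.03 for all genes. RL was higher for 28 members and lower for 6, and 20 did not pass, where 74.3% of all genes were called, 35.6% higher and 38.7% lower. POLE, the leading strand polymerase, measured 13.7 and 15.01 FPKM in Pfeiffer and 35.3 and 33.98 in RL (log2 difference 1.22 ± 0.106 (SE), limma adjusted p = 1.58e-06). GINS3 had the lowest value, at 58.6 and 58.4 FPKM in Pfeiffer and 21.15 and 19.35 in RL (log2 difference -1.49 ± 0.0782 (SE), limma adjusted p = 2.66e-08). The other 5 genes lower in RL were ORC2, ORC3, MCM4, GINS2 and RPA3. With median scaling 20 members were higher and 11 lower, where all genes went from 6661 higher and 7252 lower to 5873 and 8002. Without either GSK343 library 35 members were higher and 9 lower, where all genes had 7189 to 7190 higher and 7705 to 7706 lower. The median of all genes moved to 0.13 with quantile normalization and to -0.13 with median scaling.

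Other lists also differed between the lines. Of all genes, 33.6% were higher and 33.2% lower in RL than in KARPAS-422. In Pfeiffer 43.2% were higher and 39.8% lower than in KARPAS-422. The 13 reference genes had a median of 0.55 for RL against KARPAS-422 (9 higher, 1 lower) and of 0.51 for Pfeiffer against KARPAS-422 (7 higher, 3 lower). The 28 mitotic genes had 0.77 (22 higher, 4 lower) and -0.02 (9 higher, 10 lower), the 49 further replication genes 0.96 and 0.33, and the 10 mitochondrial genes 0.04 and -0.06. The 54 members had 1.29 and 0.98, and the part of the shift of the reference genes in these values was not tested.

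Some genes stood apart from their complex in 1 line. RFC3 (chr13:34392185-34540695 in hg19) measured 104, 126.5 and 123.5 FPKM in KARPAS-422 under DMSO, while RFC2, the lowest of the clamp and loader genes there, averaged 10.3 ± 1.23 FPKM (SD, n = 3). In Pfeiffer RFC3 measured 34.7 and 33.4 FPKM and in RL 69.9 and 70.4. MCM4 in Pfeiffer averaged 316 ± 6.45 FPKM (SD, n = 2), which was 4.66 times MCM2, the lowest MCM gene there. FPKM levels are per transcript length.

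**Figure D4:**
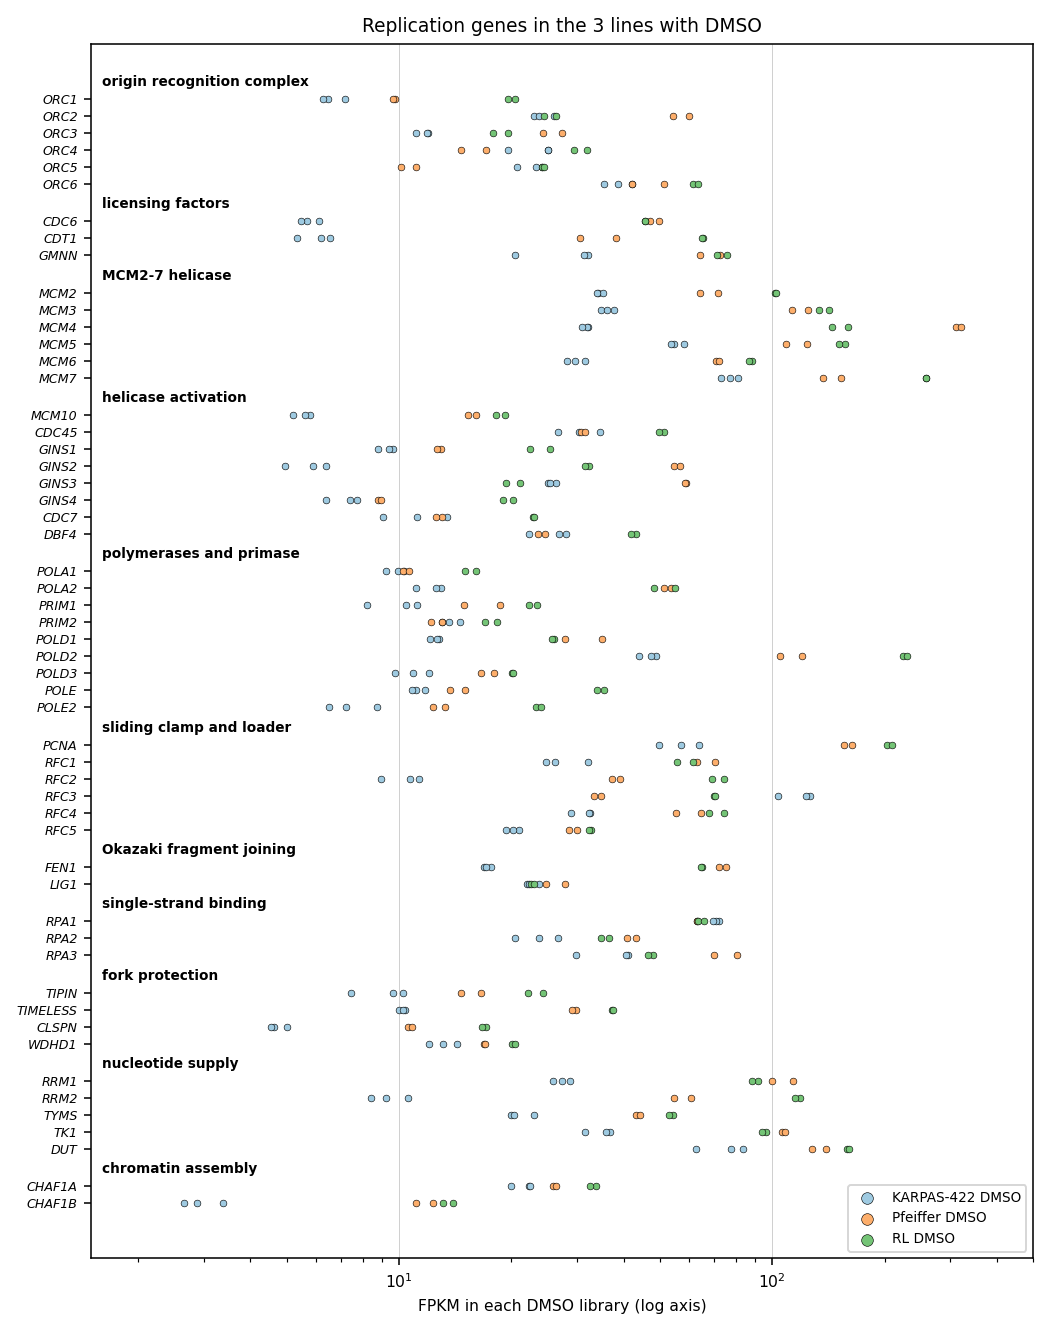
FPKM (log scale) of the 54 replication genes, by role, in each DMSO library of KARPAS-422 (n = 3), Pfeiffer (n = 2) and RL (n = 2). KARPAS-422 is lowest for 47 of the genes, RFC3 is an exception, and MCM4 in Pfeiffer has the highest level.

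Other gene lists were read in the same fits. Of 28 mitotic genes, 0 rose and 27 fell with CPI-169, with a median of -0.78, and all 28 fell with GSK343, with a median of -1.83. CCNB1, the exception, had -0.40 ± 0.157 (SE), limma adjusted p = 0.0503. CDCA8, a subunit of the chromosomal passenger complex, went from 55.5, 59.7 and 59.6 FPKM under DMSO to 22.75, 22.6 and 22.2 under CPI-169 (log2 difference -1.33 ± 0.0701 (SE), limma adjusted p = 1.66e-07). KIF11, the spindle motor Eg5, fell by 0.90 with CPI-169 and by 1.68 with GSK343, and ASPM, a spindle pole protein, by 0.89 and 1.89. ANLN, the cytokinesis protein anillin, fell by 2.07 with GSK343. The 54 replication genes had medians of -0.08 and -1.45 in the same comparisons, and the difference between the lists was not tested.

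Of 49 further replication genes tested, 9 rose and 23 fell with CPI-169 (median -0.11), and 1 rose and 35 fell with GSK343 (median -0.75). RBBP4, a histone chaperone of the chromatin assembly factor that is also part of PRC2, rose by 0.84 and TOP1, topoisomerase I, by 0.55 in KARPAS-422. UHRF1, which guides maintenance DNA methylation, and the nuclease gene DNA2 fell by 1.68 and 1.63 in Pfeiffer. The 1 gene that rose with GSK343 was POLD4, named after its value was seen (0.40 ± 0.115 (SE), limma adjusted p = 0.0243), and its call was lost without GSK343 replicate 2 and without either Pfeiffer DMSO library (adjusted p up to 0.264).

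Of 16 tested genes of E2F factors, pocket proteins and their partners, 5 rose and 8 fell with CPI-169, and 0 rose and 10 fell with GSK343. The 31.2% higher with CPI-169 lies near the 26.9% of all genes, and 50% were lower, against 27.3%. With GSK343 62.5% were lower, against 17.5% of all genes. RB1, the retinoblastoma protein, went from 76.5, 74.6 and 71.99 FPKM under DMSO to 32.3, 34.45 and 34.7 under CPI-169 (log2 difference -1.11 ± 0.0622 (SE), limma adjusted p = 2.53e-07). LIN54, a subunit of the MuvB complex, fell by 1.02 in KARPAS-422. The 5 that rose there were RBL2, the pocket protein p130 (0.75), and E2F2, TFDP1, E2F5 and E2F8 (0.49, 0.47, 0.45 and 0.38), the first 3 of these 4 named after their values were seen. E2F1, an activator of G1/S genes, went from 17.15 and 17.5 FPKM under DMSO to 4.61 and 3.98 under GSK343 in Pfeiffer (log2 difference -1.79 ± 0.0818 (SE), limma adjusted p = 6.96e-07). E2F8 fell by 1.77 and FOXM1, an activator of mitotic genes, by 1.50.

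Of 10 genes of mitochondrial DNA replication, 2 rose with CPI-169 (TOP1MT by 0.91 and SSBP1 by 0.29) and 4 fell (TFB2M by 0.93, TFAM by 0.86, MGME1 by 0.54 and RNASEH1 by 0.36). With GSK343, 0 rose and 2 fell (TFAM by 0.53 and TOP1MT by 0.40). SSBP1 and RNASEH1 were named after their values were seen. The medians were -0.03 and -0.18. Of these genes 20% were higher and 40% lower with CPI-169, against 26.9% and 27.3% of all genes. With GSK343 20% were lower, near the 17.5% of all genes. Of 13 reference genes, 2 rose (PPIA by 0.67, RPL13A by 0.45) and 2 fell (ACTB by 0.48, SDHA by 0.27) with CPI-169, with a median of 0.01. With GSK343, 1 rose (POLR2A by 0.44) and 5 fell (HPRT1 by 1.42, PGK1 by 0.63, PPIA by 0.57, GAPDH by 0.45 and TBP by 0.37), with a median of -0.26. RPL13A, POLR2A and GAPDH were named after their values were seen.

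**Figure D5:**
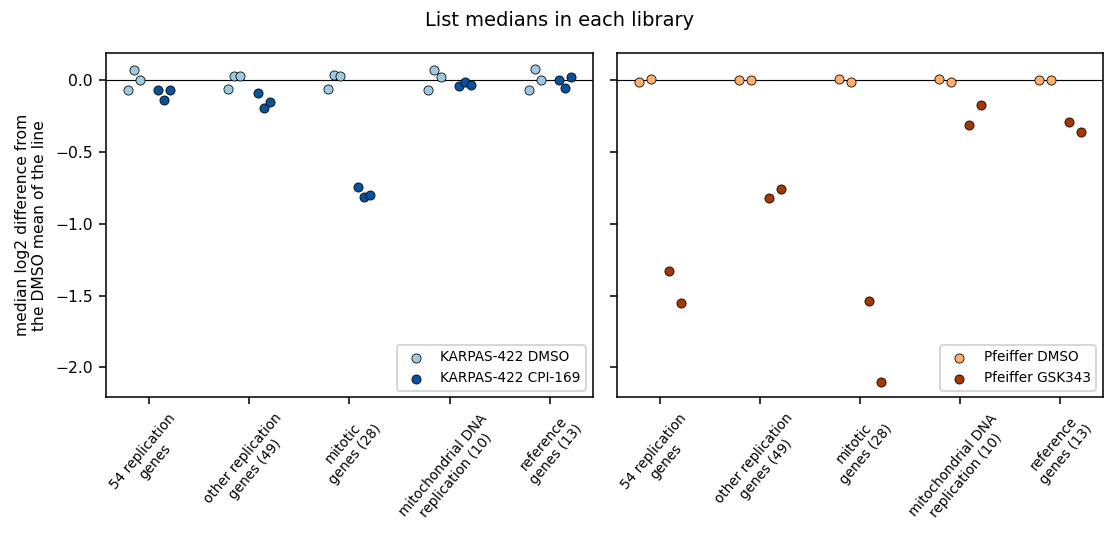
Median log2 difference of each gene list from the DMSO mean of its line (y axis) in every library of KARPAS-422 and Pfeiffer. The mitotic list lies at -0.81 to -0.74 in the CPI-169 libraries and the replication genes at -0.14 to -0.07; in the GSK343 libraries the replication genes lie at -1.33 and -1.55 and the mitotic genes at -1.54 and -2.10.

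Reads of overlapping genes cannot be told apart here, because the use of strand in counting is not known. The loci of 20 members overlap another expressed gene, among them MCM2 (TPRA1), MCM7 (AP4M1), GINS2 (GSE1), RFC4 (EIF4A2), TYMS (ENOSF1) and CHAF1B (MORC3). For 10 members, among them RRM2, PCNA, TYMS, DUT, RPA2 and RFC3, GENCODE 29 names pseudogenes whose reads could be shared, so their values are uncertain to that extent.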

How the data were processed

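RNA of 12 libraries was sequenced by the submitters. The authors deposited FPKM values for 63129 gene entries; the submitters' processing notes name TopHat 1.4.1, Cufflinks and the build hg19. Neither the annotation release nor the use of strand is stated in them. FPKM divides by all mapped fragments, so abundant transcripts lower every other value of their library. Per the labels' protocols, cells were lysed in Trizol or RLT buffer, without saying which library had which.

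Groups came from the sample titles. Entries with missing values (77) were left out, values became log2(FPKM + 1), and genes at 1 FPKM or more in 2 or more libraries were kept. All 5 groups entered 1 limma 3.58.1 model in R 4.3.3 (eBayes with trend; 7 residual df, 3.45 prior df). P-values were adjusted by Benjamini-Hochberg over all 18731 genes, with a threshold of 0.05. The script was tested on simulated data. Python 3.11.15, pandas 2.3.3 and matplotlib 3.10.9 made tables and figures. Promoters came from RefSeq (GRCh38.p14), and loci are in hg19.

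The members, lists and tests were chosen with earlier results of these data known. The rule named all members and, of each other list, the 3 genes with the smallest adjusted p per treatment; 1 gene under this rule is not reported here. Alternatives were pseudocounts of 0.1 and 5, no filter, a filter of 5 FPKM, quantile normalization, median scaling, library weights, a replicate block, the groups of a comparison alone and leaving out each library; a group left with 1 library was assumed to vary like the others.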

Additional observations from a re-analysis of the deposited data

Results flagged for a closer look

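For 49 members the response to GSK343 in Pfeiffer differed from the response to CPI-169 in KARPAS-422 by a test of the difference itself (limma, Benjamini-Hochberg). Values are the Pfeiffer log2 difference minus the KARPAS-422 log2 difference. Among origin and licensing genes these were CDT1 (-3.55), CDC6 (-2.34), GMNN (-1.58), ORC1 (-1.46), ORC3 (-0.88) and ORC6 (-0.73), and ORC5 (0.51) as the 1 member with a higher value in Pfeiffer. Among the helicase subunits they were MCM4 (-2.36), MCM7 (-2.09), MCM3 (-2.04), MCM6 (-1.11), MCM2 (-1.04) and MCM5 (-0.72), and among its activators GINS2 (-2.57), CDC45 (-2.01), MCM10 (-1.87), CDC7 (-1.71), GINS1 (-1.27), GINS4 (-0.74) and DBF4 (-0.42). The polymerase and primase genes had POLD1 (-2.34), POLE2 (-2.33), PRIM1 (-2.18), POLA2 (-1.85), POLE (-1.68), POLD2 (-1.49), POLD3 (-0.93) and PRIM2 (-0.63). The clamp, loader and fragment joining genes had PCNA (-2.51), RFC4 (-1.96), LIG1 (-1.68), FEN1 (-1.5), RFC2 (-1.49), RFC5 (-1.30), RFC1 (-0.72) and RFC3 (-0.69). The fork and single-strand binding genes had CLSPN (-2.28), TIMELESS (-2.27), WDHD1 (-1.16), TIPIN (-1.13), RPA3 (-0.84) and RPA1 (-0.39). The nucleotide supply and chromatin assembly genes had RRM2 (-3.41), TYMS (-2.76), CHAF1B (-1.77), DUT (-1.56), TK1 (-1.54), RRM1 (-1.42) and CHAF1A (-0.97).

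Of the 48 lower values, 41 kept their call under all 21 alternatives, and the exceptions were ORC6, GINS4, DBF4, PRIM2, RFC1, RPA1 and RPA3. No group had more than 3 libraries, so no search for a library far from its group was made.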

How the results depend on the processing

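The 1 sign change past the threshold was the ORC2 difference between lines, which was 0.14 and did not pass, and -0.36 without Pfeiffer GSK343 replicate 2 and 0.65 without replicate 1. The member median with GSK343 was -1.10 with a pseudocount of 5, -1.18 with quantile normalization and -1.32 with median scaling, and -1.55 to -1.33 when a library was left out; the number of lower members was 0 with the Pfeiffer libraries fitted alone, as was the number of all 18731 genes called, where 2 residual degrees of freedom remain. The median difference between the responses was -1.15 with a pseudocount of 5, -1.30 with quantile normalization and -1.62 to -1.30 when a library was left out, and the number of higher members was 2 with quantile normalization and 1 to 2 when a library was left out. The median of RL against KARPAS-422 was 1.06 with a pseudocount of 5. For RL against Pfeiffer the lower members numbered 11 with median scaling (median 0.16), 12 with library weights and 10 with the groups alone. For Pfeiffer against KARPAS-422 the median was 0.88 with a pseudocount of 5, 0.79 with quantile normalization and 1.09 with median scaling, and the lower members numbered 2 to 4 when a library was left out. The cause of these shifts was not tested. With a replicate block, 15 members were higher and 16 lower in KARPAS-422 and 51 lower in Pfeiffer; the numbers share no stated source, the block changed no count of calls by over 1.5 times, and same-numbered deviations correlated at -0.152, -0.252 and 0.156 in KARPAS-422 and at 0.14 in Pfeiffer. The lowest member value was 1.73 FPKM, and no counting error can be given without counts.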

Other observations

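Levels of subunits within a complex were set side by side as the ratio of the highest to the lowest mean FPKM. In the MCM2-7 helicase this ratio was 2.58 in KARPAS-422 with DMSO and 3.88 with CPI-169, with MCM6 lowest and MCM7 highest in both. In Pfeiffer it was 4.66 with DMSO and 3.36 with GSK343, with MCM2 lowest and MCM4 highest in both, and in RL it was 2.95. Among the polymerase and primase genes it was 6.24 in KARPAS-422 with DMSO and 14.5 with CPI-169, and 10.7 in Pfeiffer with DMSO and 32.3 with GSK343, with POLD2 highest in every group. In the origin recognition complex it was 5.87 in Pfeiffer with DMSO and 21.2 with GSK343, with ORC1 lowest and ORC2 highest in both; the GSK343 libraries of ORC2 lay at 32.8 and 67.1 FPKM. Among the single-strand binding genes the ratio stayed between 1.55 and 3.60 in all groups. These ratios carry no test, and FPKM depends on the transcript lengths used by the authors.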
